A study of Mus musculus with 8 samples.

Results

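The REV-ERB and ROR receptor genes measured here were Nr1d1 (REV-ERBα), Nr1d2 (REV-ERBβ), Rora (RORα) and Rorb (RORβ). They were taken by symbol from the deposited expression tables. All 4 had a row, each symbol stood in 1 row only, and together they were 4 of 78298 rows. The libraries were poly(A) RNA-seq of NIH3T3 cells, a mouse embryonic fibroblast line of genotype WT that grows as a continuous culture. A group of 4 libraries came from cells given Mic-628 and a group of 4 from cells given vehicle, each for 1 day. In its title the series is about an inducer of Period1 and the mouse clock, and its labels give no dose, no second time point and no clock-synchronising step. The libraries carry batch numbers 1 to 4, each shared by 1 vehicle and 1 Mic-628 library. Separate cultures are not stated for the libraries of a group. The p-values therefore rest on differences between these libraries alone, and that spread may be technical.

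REV-ERB proteins are nuclear receptors that bind heme and repress transcription by recruiting the NCoR corepressor with the histone deacetylase HDAC3. ROR proteins bind the same DNA element as activators, and sterols fit their ligand pocket. In the circadian clock both families act on Bmal1, while CLOCK:BMAL1 drives the REV-ERB genes through E-boxes, where PER and CRY proteins repress it. This stabilising loop runs in most tissues, fibroblasts included.

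The stretch just upstream of the transcription start is shown for the REV-ERB genes, since their transcripts differed in opposite directions. The windows hold the 250 bases before the RefSeq start on build GRCm38.p6, printed 5′ to 3′ on the gene's strand. They are chr11:98775378-98775627 (minus strand) for Nr1d1 and chr14:18239107-18239356 (minus strand in that build) for Nr1d2. Capitals mark the only match in each window to the motifs searched.
Nr1d1: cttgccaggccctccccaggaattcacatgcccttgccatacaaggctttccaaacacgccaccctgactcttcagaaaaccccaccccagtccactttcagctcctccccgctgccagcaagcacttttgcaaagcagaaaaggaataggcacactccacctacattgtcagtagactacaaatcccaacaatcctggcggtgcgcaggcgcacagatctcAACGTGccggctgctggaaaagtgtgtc
Nr1d2: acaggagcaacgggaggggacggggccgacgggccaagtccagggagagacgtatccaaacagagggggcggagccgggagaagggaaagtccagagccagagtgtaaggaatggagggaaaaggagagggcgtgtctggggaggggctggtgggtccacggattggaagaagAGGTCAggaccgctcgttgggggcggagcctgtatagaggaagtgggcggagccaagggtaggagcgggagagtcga
The motifs searched on both strands were the receptor core AGGTCA, the full ROR/REV-ERB element (RORE), the E-box CACGTG and the E-prime box CACGTT. The D-box forms TTATGTAA and TTACGTAA and the cyclic AMP response element TGACGTCA were searched as well. The RORE pattern ends in the receptor core, with A or G allowed as the first base of that core. In the Nr1d1 window the capitals are the E-prime box, read on the opposite strand, at bases -28 to -23 from the start. In the Nr1d2 window they are the receptor core at -77 to -72. Over 32851 RefSeq windows of this length, 3.85% held the E-prime box, 14% the receptor core, 0.332% the RORE, 6.02% the E-box, 0.819% and 0.113% the D-box forms and 1.55% the cyclic AMP response element. The Nr1d2 window had a GC content of 63.6%, the Nr1d1 window 54.8%, and the median of all windows was 52.4%. A match is a run of letters and not a measured binding site. On GRCm38, the transcript counted for Nr1d1 starts 44 bases downstream of the RefSeq start and that for Nr1d2 starts 21 bases upstream. The RefSeq start of Rora lies 635896 bases upstream of the start of the counted transcript, so its window is not shown.

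Between 18.1 M and 23.2 M counts per library (M, mega) fell on listed rows. With edgeR's quasi-likelihood test and Benjamini-Hochberg adjustment over 17128 rows, 4.37% were called changed at an adjusted p under 0.05 (749 rows), 2.13% higher and 2.25% lower with Mic-628. Without vehicle library 2 the number was 426, and without Mic-628 library 3 it was 438. The median log2 fold change of all tested rows was -0.0040. FPKM are fragment counts scaled by exon length and library total. Fibroblast markers, summed over 10 genes, were at 5123 to 5300.0 FPKM with vehicle and 4473 to 4588 FPKM with Mic-628. The largest parts were Vim (mean 2127 FPKM with vehicle, 1831 with Mic-628) and Fn1 (1599 and 1320 FPKM). Lowest were Pdgfra (8.62 and 8.80 FPKM), Col3a1 (15.0 and 10.1 FPKM) and Pdgfrb (17.1 and 17.2 FPKM). Of the 10 genes, 4 fell (Col3a1, Fn1, Vim and Col1a2, log2 fold changes -0.57, -0.28, -0.22 and -0.14). Col3a1, Fn1 and Vim each lost the call in 1 of 25 alternative fits, and Col1a2 lost it in 3. Summed epithelial markers (7 genes) ranged from 1.86 to 2.15 FPKM with vehicle and from 1.85 to 2.71 FPKM with Mic-628. Summed blood and macrophage markers (7 genes, with Adgre1 and Cd3e among those at 0) went from a range of 8.02 to 8.65 FPKM to one of 8.82 to 9.60 FPKM. Most of this sum was Cd68 (mean 6.59 FPKM with vehicle, 7.42 with Mic-628) and Csf1r (1.56 and 1.81 FPKM). Both were higher with Mic-628 without a call (edgeR adjusted p 0.260 and 0.149, unadjusted 0.0380 and 0.0135). Endothelial (5 genes), neuron (5 genes) and muscle and fat cell markers (5 genes) were at most 0.348, 4.39 and 0.058 FPKM in sum. The part of these markers in the receptor results was not tested.

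The 4 receptor genes split into a rising repressor, a falling repressor, a weakly falling activator and an activator near 0. Nr1d1 rose 2.87-fold, Nr1d2 fell to 0.506 times its vehicle level, and Rora was 20.3% lower with a call that few settings kept. The members past the low-count filter were 3 of 4, and all 3 were called, 1 higher and 2 lower, beside 4.37%, 2.13% and 2.25% of tested rows. Groups without overlap in FPKM were also seen in 3 of 3, beside 10.7% of tested rows: 1 above (5.68% of rows) and 2 below (5.02% of rows). These are bulk libraries, so a change in the share of cells that carry a transcript and a change within each cell cannot be told apart.

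Nr1d1 encodes REV-ERBα, the repressor best known for the rhythm of Bmal1. Its row is transcript ENSMUST00000064941.7 on the minus strand of chr11:98658758-98666159 (mm39), with 2706 exon bases. The vehicle libraries 1 to 4 held 15.3, 16.1, 17.2 and 17.3 FPKM, and the Mic-628 libraries 1 to 4 held 45.9, 49.2, 46.1 and 47.9 FPKM. Every Mic-628 library stood far above every vehicle library, and the libraries of a group lay close together. The mean was 16.5 ± 0.970 FPKM (SD, n = 4) with vehicle and 47.3 ± 1.55 FPKM (SD, n = 4) with Mic-628. The log2 fold change was 1.52 with a standard error of 0.040 and an edgeR adjusted p of 6.25e-19. This corresponds to a 2.87-fold higher level, with a 95% interval of 2.71 to 3.04. Same-batch libraries differed by 1.60, 1.61, 1.42 and 1.47 log2 CPM (counts scaled by library total, without length) in batches 1 to 4. By p it was row 2 of all tested rows, and by fold it was row 8 among the rows called higher. Of all tested rows, 74.3% lay below its vehicle level and 91.9% below its Mic-628 level in FPKM.

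Nr1d2 encodes REV-ERBβ, the close relative that binds the same element and partly covers for REV-ERBα. Its row is ENSMUST00000090543.6 at chr14:4230569-4265642 (mm39, where it is on the plus strand), with 4648 exon bases. The vehicle libraries held 14.9, 15.1, 14.8 and 14.1 FPKM, and the Mic-628 libraries 7.09, 7.65, 7.26 and 7.81 FPKM. All Mic-628 libraries were below all vehicle libraries, and the ranges were well apart. The mean went from 14.7 ± 0.461 FPKM to 7.45 ± 0.332 FPKM (SD, n = 4 each). Nr1d2 fell by 0.98 on the log2 scale (standard error 0.040, edgeR adjusted p 6.18e-15), a level 49.4% lower with a 95% interval of 46.4% to 52.2%. The same-batch differences were -1.07, -0.99, -1.03 and -0.85 log2 CPM. It was row 5 by p over all tested rows, and only 3 rows called lower had a larger fold. Its place among tested rows went from above 71.6% of them to above 53.6%.

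**Figure D1:**
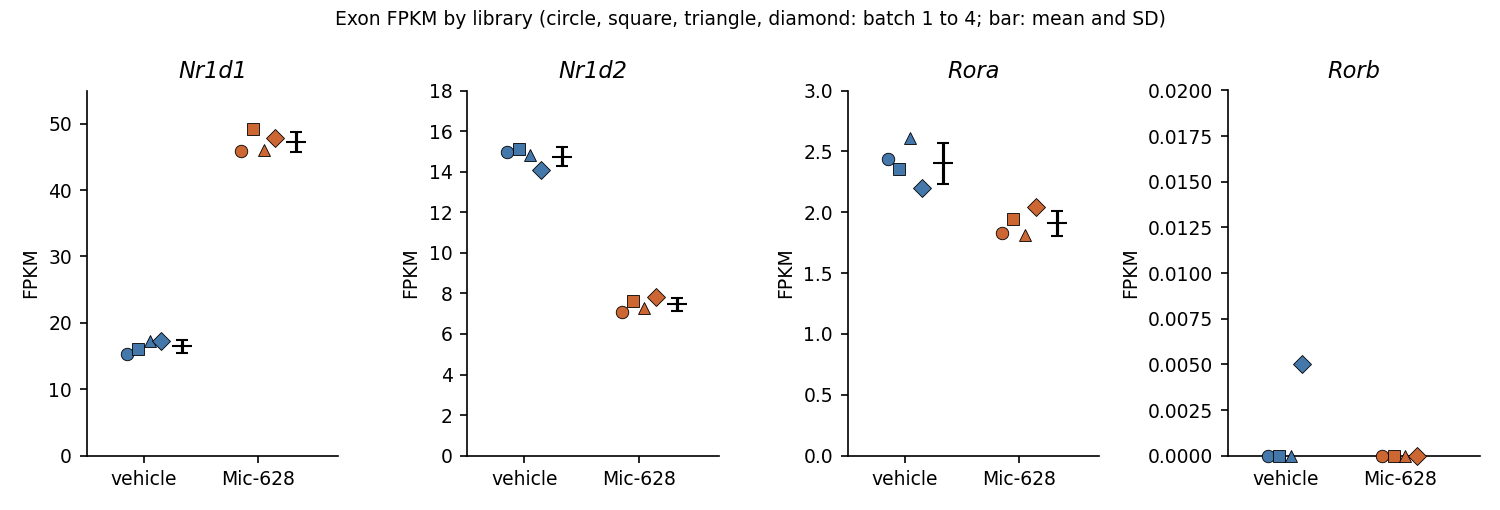
Exon FPKM (y axis, linear, a separate scale for each gene) of Nr1d1, Nr1d2, Rora and Rorb in the 4 vehicle and 4 Mic-628 libraries. Point shapes give the batch number, and the bar beside the points is the mean with its SD (no bar for Rorb, which had 1 count in all). The groups of Nr1d1 and Nr1d2 are far apart in opposite directions, those of Rora are adjacent without overlap, and Rorb is at 0 in 7 of 8 libraries.

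Rora encodes RORα, the activator that competes with the REV-ERB proteins for their element. The row is ENSMUST00000113624.3 on the plus strand of chr9:69196964-69287091 (mm39), with 2572 exon bases. Its vehicle libraries held 2.43, 2.36, 2.61 and 2.20 FPKM, and its Mic-628 libraries 1.83, 1.95, 1.81 and 2.04 FPKM. The groups did not overlap, but the highest Mic-628 library (2.04 FPKM) lay near the lowest vehicle library (2.20 FPKM), and both carry batch number 4. The means were 2.40 ± 0.170 FPKM and 1.91 ± 0.106 FPKM (SD, n = 4 each), from 131 to 152 counts per vehicle library and 92.5 to 126 counts per Mic-628 library. The edgeR log2 fold change was -0.33 with a standard error of 0.095 and an adjusted p of 0.0474, and the 95% interval of the fall ran from 8.77% to 30.4%. Same-batch differences were -0.40, -0.27, -0.53 and -0.10 log2 CPM. All 4 had the same sign, which groups without overlap give in any pairing, so the sign is no separate result. With the batch number as a replicate block the edgeR adjusted p was 0.0803, with DESeq2 it was 0.124, and with DESeq2 and the block 0.606. The call stood in 5 of 25 alternatives. Of the 8 fits that left out 1 library, 1 kept it (without vehicle library 4, adjusted p 0.0339), and the highest adjusted p, 0.153, came without vehicle library 3.

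**Figure D2:**
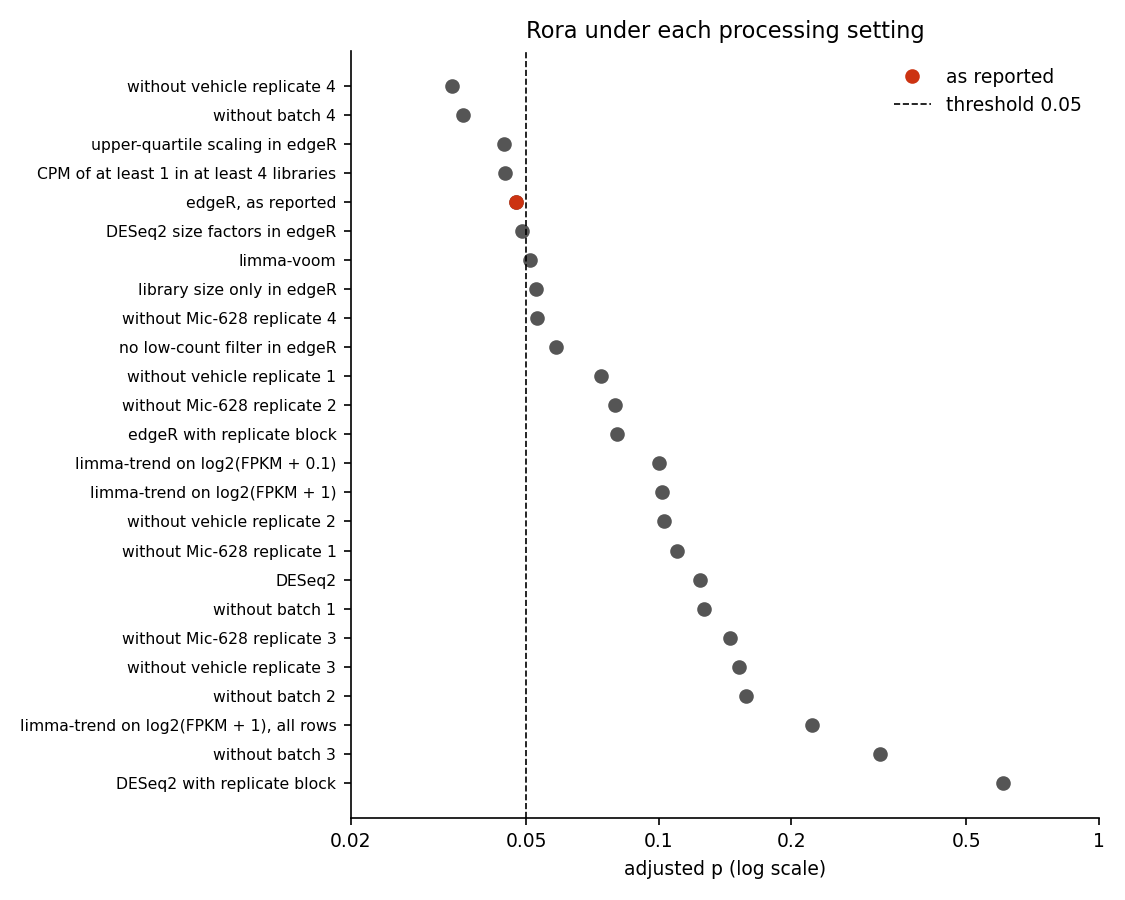
Adjusted p of Rora (x axis, log scale) under the reported edgeR fit and each alternative fit (rows), with the dashed line at 0.05. The reported value, 0.0474, lies just left of the line, 4 alternatives lie left of it, 1 lies between it and the line, and all others plotted lie right of the line.

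Rorb encodes RORβ, which is best known from retina, brain and bone. Its row is ENSMUST00000112832.8 on the minus strand of chr19:18907969-19088560 (mm39), with 9274 exon bases. It had 1 count in vehicle library 4, listed as 0.005 FPKM, and 0 in the other 7 libraries. A count of 0 allows up to 3 counts, or 0.0165 FPKM at the lowest depth, for counting error only. Rorb did not pass the low-count filter and was not tested, and a difference was not detectable at this depth.

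Ordered by FPKM, the vehicle libraries had Nr1d1 and Nr1d2 at nearly the same level, Rora well below them and Rorb near 0. Nr1d1 was above Nr1d2 in each vehicle library, by 1.02, 1.06, 1.16 and 1.23 times, and in library 1 the gap was smaller than the SD of either gene. In the Mic-628 libraries the order was the same with wide gaps, and the ratio was 6.48, 6.43, 6.34 and 6.13. Nr1d1 thus made up 50.5%, 51.5%, 53.8% and 55.1% of the REV-ERB FPKM sum with vehicle and 86.6%, 86.5%, 86.4% and 86.0% with Mic-628. The sum of the pair was 31.2 ± 0.756 FPKM with vehicle and 54.7 ± 1.84 FPKM with Mic-628 (SD, n = 4 each), a ratio of 1.75. The fall of Nr1d2 (-7.29 FPKM) was smaller than the rise of Nr1d1 (30.8 FPKM), and no vehicle library reached the sum of any Mic-628 library. The level of the pair divided by that of Rora was 13.0 ± 0.902 with vehicle (range 12.3 to 14.2) and 28.7 ± 0.956 with Mic-628 (range 27.3 to 29.4), 2.20 times as high. For Nr1d1 alone this ratio went from 6.88 to 24.8, and for Nr1d2 alone from 6.15 to 3.91. These sums and ratios are of transcript levels per length and carry no test of their own.

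**Figure D3:**
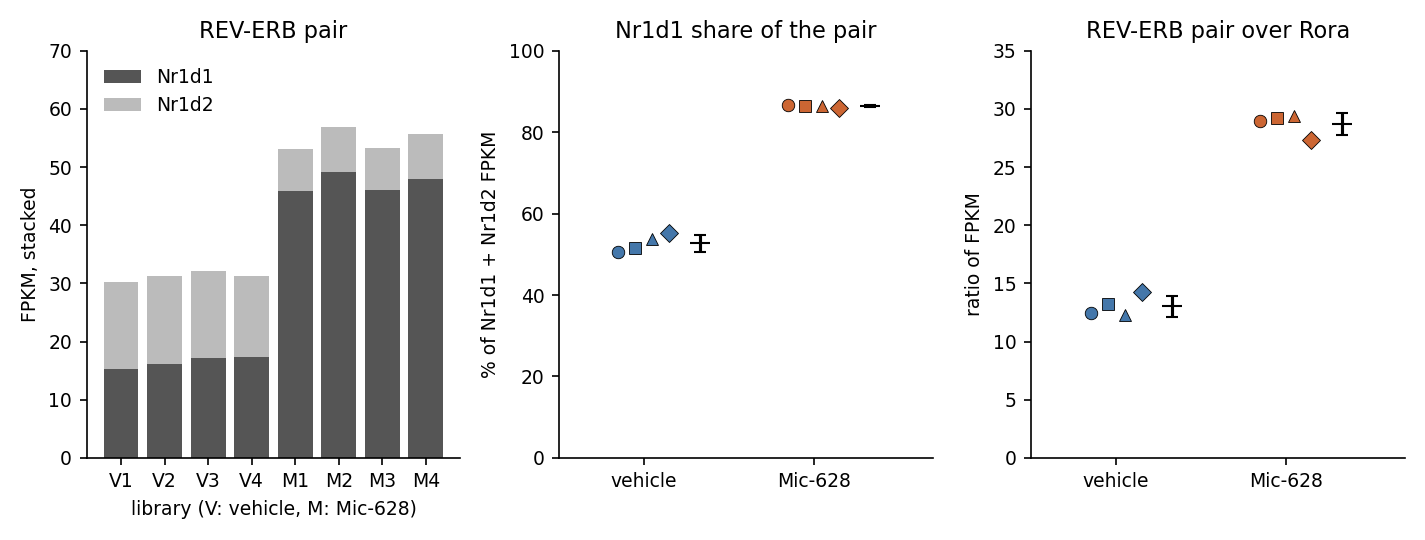
Left, stacked FPKM of Nr1d1 and Nr1d2 in each library. Middle and right, the share of Nr1d1 in that sum (%) and the sum divided by Rora FPKM, with points per library (shape for batch number) and mean with SD. The share is 50.5% to 55.1% with vehicle and 86.0% to 86.6% with Mic-628, and the ratio to Rora is 12.3 to 14.2 and 27.3 to 29.4.

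**Figure D4:**
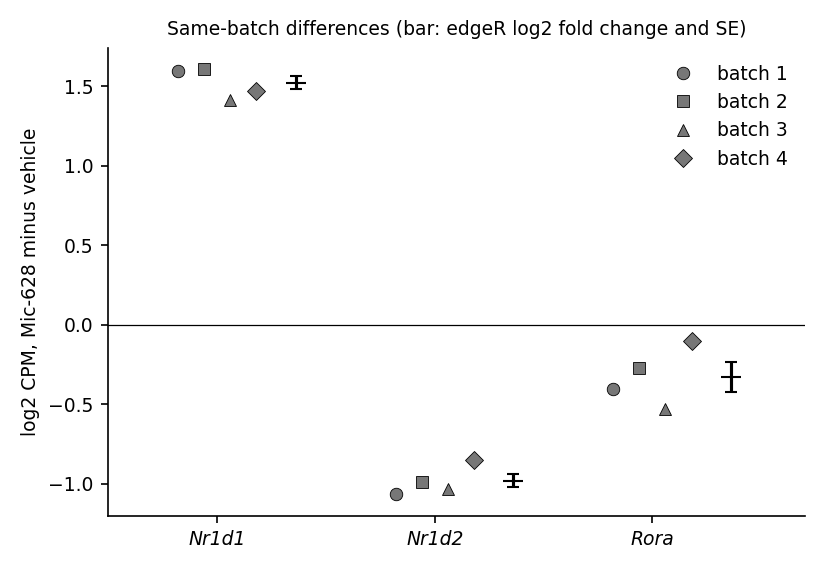
Difference in log2 CPM (y axis) between the Mic-628 and the vehicle library of the same batch number for Nr1d1, Nr1d2 and Rora, with the edgeR log2 fold change and its standard error as a bar. All 4 differences of each gene have the same sign, as groups without overlap must in any pairing, and those of Rora run from -0.53 to -0.10.

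The clock genes that carry ROR/REV-ERB elements were mostly lower with Mic-628. Of 5 listed genes 4 were tested, and 3 fell (2.25% of all tested rows were called lower), with a list median of -0.50 on the log2 scale. Bmal1, the partner of CLOCK and the textbook target of both receptor families, held 4.97, 4.56, 4.39 and 4.43 FPKM with vehicle and 2.80, 2.89, 3.03 and 2.94 FPKM with Mic-628. Its groups did not overlap, and it fell by 0.65 on the log2 scale (standard error 0.070, edgeR adjusted p 8.06e-07). Nfil3, a repressor at D-boxes, went from 25.5 ± 1.26 to 17.4 ± 0.747 FPKM (log2 fold change -0.55), and its vehicle minimum of 23.8 FPKM was above its Mic-628 maximum of 18.3 FPKM. Cry1, a repressor of CLOCK:BMAL1, went from 5.08 ± 0.213 to 3.73 ± 0.167 FPKM (log2 fold change -0.44, edgeR adjusted p 4.76e-05). Clock itself was not called, with a log2 fold change of 0.06 and an adjusted p of 0.460, and Npas2 had 11 counts in all and was not tested. The 3 calls stood in every fit tried. In the RefSeq windows, the receptor core was found 12 bases upstream of the Nfil3 start and 119 bases upstream of 1 of 3 Clock starts, and in none of the windows of Bmal1, Cry1 or Npas2.

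Outside the clock, 19 genes known as REV-ERB or ROR targets in some tissue were looked up, and most were at or near 0 or not called in these fibroblasts. Of them 8 were tested, 1 rose and 1 fell, beside 2.13% and 2.25% of all tested rows, and 6 were not called, with a median log2 fold change of -0.12, and 4 were at 0 in every library (Fabp7, Elovl3, Apoc3 and G6pc1, genes best known from brain, liver or fat). Ccl2, a chemokine for monocytes, held 8.20, 8.46, 8.75 and 9.05 FPKM with vehicle and 6.18, 5.01, 5.45 and 5.87 FPKM with Mic-628. Its groups did not overlap, and it fell by 0.62 on the log2 scale (standard error 0.094, edgeR adjusted p 1.20e-04). Plin2, a lipid droplet coat protein, and Insig2, a brake on sterol synthesis, had log2 fold changes of -0.10 and -0.15 (adjusted p 0.0868 and 0.174). The call of Ccl2 held in all 25 alternatives.

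The genes that act at the E-boxes of the REV-ERB genes moved in both directions. Of 11 listed genes 10 were tested, 1 rose and 5 fell, beside 2.13% and 2.25% of all tested rows, and 4 were not called, with a median of -0.35. Per1, a repressor in the core loop, had the largest rise of the list (log2 fold change 2.53), and Per3 had the largest fall (-2.03). Per2 (-0.86), Cry2 (-0.46), Cry1 and Bmal1 were lower as well, though Per2 was lost in 3 of the 23 alternatives that gave it a value. The basic helix-loop-helix repressors Bhlhe40 (0.16) and Bhlhe41 (0.00082) and the repressor Ciart (-0.25) were not called, but Bhlhe40 passed the threshold in 4 of 25 alternatives. Its edgeR adjusted p was 0.00119 without the low-count filter and 0.00712 without batch 1. It was 0.0253 without vehicle library 1 and 0.0465 without Mic-628 library 3. The sign of Bhlhe41 turned with the scaling. Among the 4 D-box factors, 3 fell (2.25% of all tested rows were called lower) and the median was -0.66. Nfil3 was 1 of these 3, and it also stands in the list of clock genes with ROR/REV-ERB elements. Bmal1 and Cry1 stand in both that list and the E-box list, so the counts of these lists share genes. The activators Tef and Dbp went from 11.1 ± 0.238 to 6.17 ± 0.413 FPKM and from 6.57 ± 0.261 to 3.84 ± 0.354 FPKM (log2 fold changes -0.85 and -0.77). Hlf, the third such activator, pointed the other way without a call (0.60, adjusted p 0.0683).

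The proteins that REV-ERB and ROR act through showed no called change at the transcript level. Of the NCoR corepressor complex with HDAC3, 6 of 6 genes were tested and 0 were called by edgeR, DESeq2 or limma-voom. Of all tested rows edgeR called 4.37%, so 0 calls in a list this short is near that share. None had an unadjusted p under 0.05 (0 of 6), the median was -0.016, and the log2 fold changes ran from -0.07 (Tbl1xr1) to 0.05 (Gps2), with Hdac3 at -0.02. The number of them called lower was 0 in 22 of 24 other fits and 1 without vehicle library 1 and without batch 1. The 10 listed cofactors of nuclear receptors, coactivators apart from the corepressor Nrip1, were all tested. By the same 3 tools 0 were called, again beside 4.37% of all tested rows by edgeR. None had an unadjusted p under 0.05 (0 of 10), and the median was 0.012. Among them, Ncoa3 stood at 0.08 and Kat2b at -0.09, Ep300 at 0.04 and Nrip1 at 0.04. For the kinases and ubiquitin ligases that act on REV-ERB proteins, 7 of 8 were tested. By these tools 0 were called (edgeR called 4.37% of all tested rows), 0 had an unadjusted p under 0.05, and the median was 0.0037. Gsk3b, whose protein stabilises REV-ERBα by phosphorylation, was at -0.02, Cdk1 and Siah2 at 0.07 each and Fbxw7 at 0.02.

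Genes for the REV-ERB ligand heme were likewise not called. All 12 genes of heme synthesis and breakdown were tested, 0 were called by edgeR, DESeq2 or limma-voom, and 1 had an unadjusted p under 0.05. Of all tested rows edgeR called 4.37%, so 0 calls among 12 genes is near that share. The list median was -0.022. Cpox (0.08), Alas1, the first and rate-limiting enzyme (-0.03), and the heme oxygenases Hmox1 (-0.05) and Hmox2 (-0.06) had adjusted p values above the threshold. Alas1 was named after its value was seen.

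**Figure D5:**
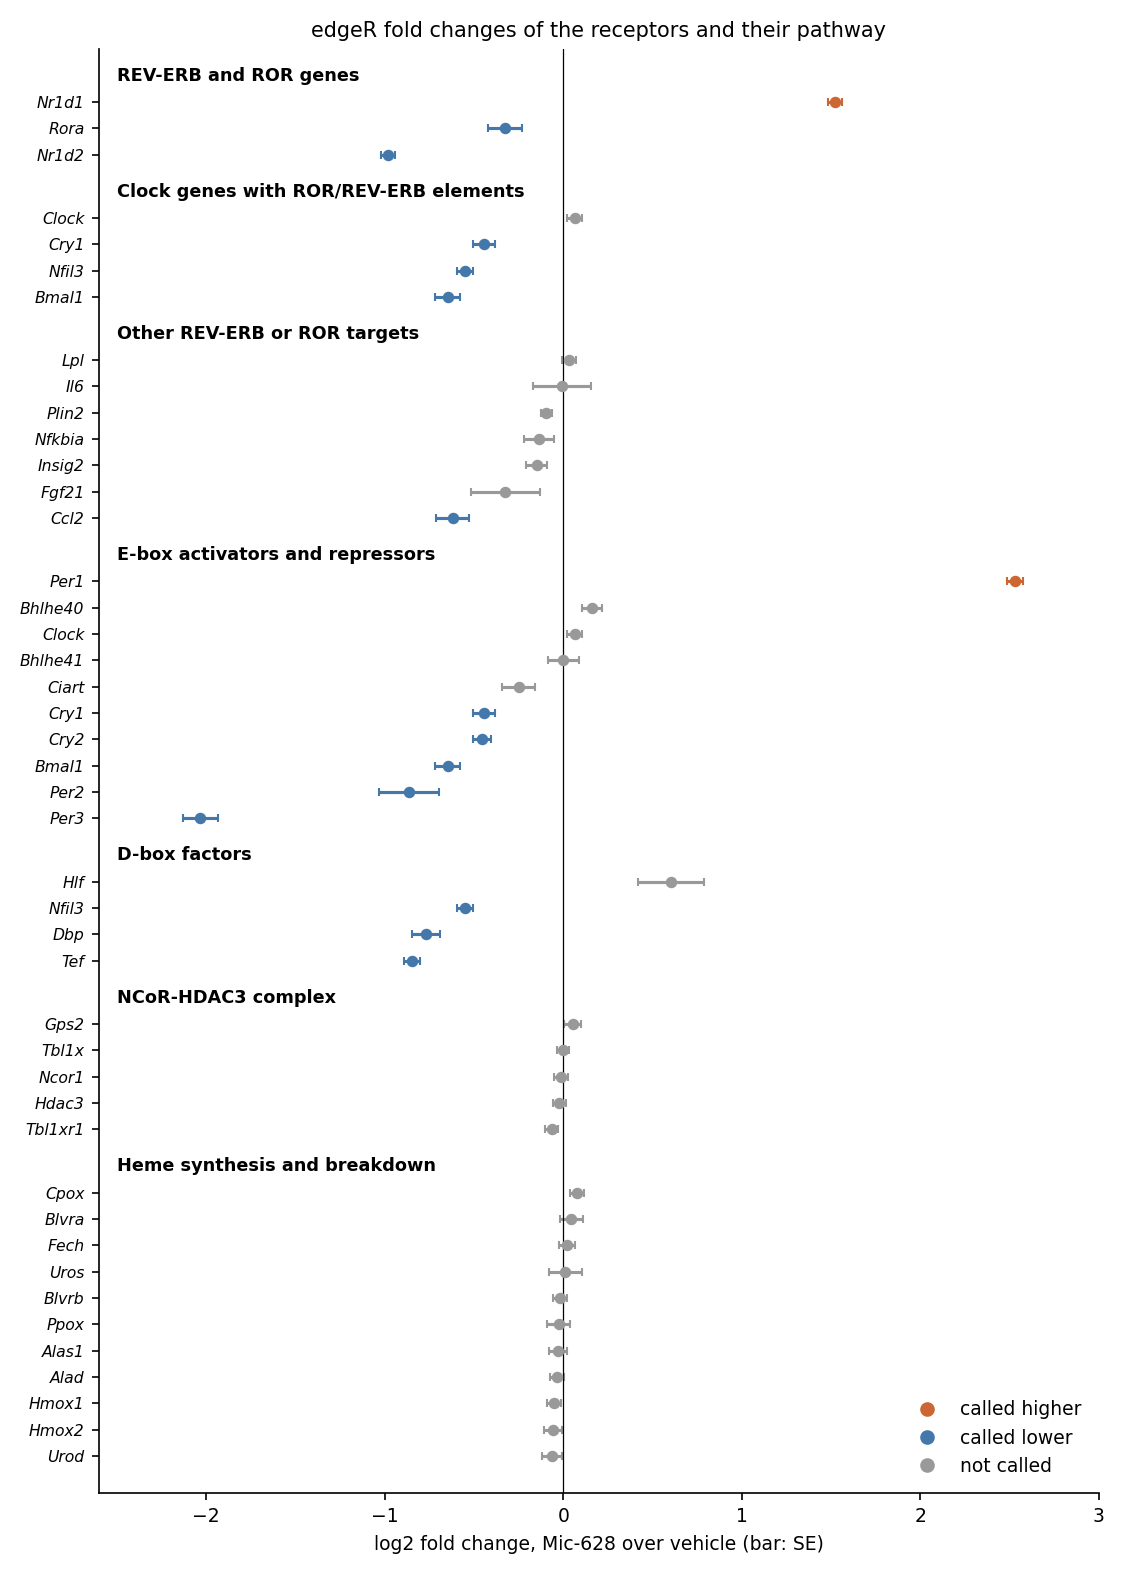
Log2 fold change of Mic-628 over vehicle (x axis, bar: standard error) for the tested receptor genes and for tested genes of 6 lists around them. Orange points were called higher, blue points lower and grey points neither. Nr1d1 lies at 1.52 and Nr1d2 at -0.98, 3 of 4 clock genes with ROR/REV-ERB elements lie left of 0, and the corepressor and heme genes shown lie between -0.07 and 0.08.

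Next to Nr1d1 on chromosome 11 lies Thra, the thyroid hormone receptor gene that runs toward it on the other strand. Thra held 22.5, 22.6, 22.2 and 21.7 FPKM with vehicle and 32.6, 36.9, 32.5 and 34.6 FPKM with Mic-628, so all its Mic-628 libraries were higher. It rose by 0.62 on the log2 scale (standard error 0.041, edgeR adjusted p 8.05e-11), 53.6 ± 0.836 against 82.3 ± 4.82 CPM, a gain of 28.7 CPM beside 90.1 CPM for Nr1d1. The listed end of Thra, at 98655937 (mm39), is 2821 bases from Nr1d1, so the counted rows of these genes share no exon bases on mm39. The row Gm57390, on the plus strand at chr11:98657199-98658573 between the receptors and 185 bases from Nr1d1, rose by 0.68 (7.95 to 12.7 CPM, edgeR adjusted p 1.88e-06). Whether the counting used strand is not given in the sources used here. On GRCm38, in the GENCODE M21 annotation, 263 of the 2721 exon bases of Nr1d1-201 (9.67%) overlap exons of the transcript Thra-201 on the other strand. Reads of a Thra transcript that reaches Nr1d1 could be counted for Nr1d1, and these rows are uncertain where reads could be shared. The part of such reads in either result was not tested. On the far side, Msl1 was not called (0.11, adjusted p 0.136).

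Around the other members no tested neighbour was called. Thrb, the other thyroid hormone receptor gene, is at chr14:4431611-4488167 (mm39, minus strand), 165969 bases from Nr1d2. Thrb went from 4.25 to 5.17 CPM without a call (0.27, adjusted p 0.262). The 6 nearest tested neighbours of Nr1d2, Rora and Rorb had 0 calls by edgeR, DESeq2 or limma-voom, beside 4.37% of all tested rows by edgeR. They had 2 unadjusted p values under 0.05, log2 fold changes of -0.06 to 0.27 and 0.262 as their lowest edgeR adjusted p. Rows that overlap members on mm39 held 5 counts in all for Nr1d1, 12 for Nr1d2 and 11.5 for Rora (Gm15511). The Rora row is the transcript Rora-202, and on GRCm38 2224 of its 2591 exon bases (85.8%) also belong to Rora-201, so its counts cannot tell these isoforms apart.

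Few rows lay near Nr1d1 or Nr1d2, whose fold changes are among the largest, over the 8 libraries. Likeness was the root mean square difference in log2 CPM from the vehicle mean. It was taken over 11277 rows with a mean CPM of at least 1 and a symbol that is no predicted or clone name. Gfra1, a co-receptor for GDNF, came closest to Nr1d1 at 0.0921, and it was the only one of these rows within 0.1. Gfra1 held 4.71, 4.41, 4.65 and 4.23 FPKM with vehicle and 13.4, 13.4, 12.9 and 13.5 FPKM with Mic-628 (log2 fold change 1.57). Arl4d (0.235), Hspb7 (0.275) and Slpi (0.314) followed at a distance, with log2 fold changes of 1.28, 1.22 and 1.13. Nearest to Nr1d2 were the D-box activators Tef (0.110) and Dbp (0.171), then Plppr3 (0.189), Cxcl5 (0.193) and Nlrp2 (0.203). Their log2 fold changes ran from -0.93 (Nlrp2) to -0.75 (Plppr3), and Cxcl5 and Nlrp2 each lost the call in 4 alternatives.

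Around Rora 42 rows were within 0.1, beside 1 for Nr1d1 and 0 for Nr1d2. The measure depends mostly on the fold change, so a gene with a small fold has many near rows, and these counts are no separate result. Within 0.2 there were 1593 rows for Rora, 1 for Nr1d1 and 4 for Nr1d2. The nearest to Rora were Sts (0.0482), Capn5 (0.0557), Pim2 (0.0586), Tcn2 (0.0616) and Fzd8 (0.0671). Capn5 (log2 fold change -0.34, adjusted p 0.00620), Tcn2 (-0.28, adjusted p 0.00497) and Fzd8 (-0.28, adjusted p 0.0382) were called by edgeR. Sts (-0.36, adjusted p 0.134) and Pim2 (-0.31, adjusted p 0.124) were not. With the replicate block the adjusted p of Fzd8 was 0.0612, and of the 8 fits without 1 library only that without vehicle library 1 kept its call.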

How the data were processed

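Poly(A) RNA of 8 NIH3T3 libraries, 4 vehicle and 4 Mic-628, was measured after 1 day. The tools named, without roles, are HOMER 4.11, STAR 2.7.10a and bcl2fastq, and the build is GRCm39 (mm39), per the submitters' processing notes. The authors deposited exon counts per canonical transcript in steps of 0.5, treated here as estimated counts, and FPKM values for the same 78298 rows, of which 39489 had a count. FPKM recomputed from counts, exon length and the library totals in the header (19.6 M to 25.1 M) differed by at most 5e-04. All columns matched a sample by library name.

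Rounded counts entered edgeR 4.0.16 in R 4.3.3 (filterByExpr with a minimum count of 10, TMM, quasi-likelihood F test without a block, Benjamini-Hochberg adjustment, threshold 0.05). Normalization factors lay between 0.9946 and 1.007, and replicate spread (BCV) was 3.47%. A standard error here is the log2 fold change divided by the square root of F. Log2 CPM has a prior count of 0.5, and levels are mean ± SD. The test was run on counts simulated from its own fitted model, which cannot show whether that model fits these libraries. Alternatives were DESeq2 1.42.0, limma 3.58.1 (voom on counts, trend on log2 FPKM with 1 or 0.1 added), other scalings and filters, a batch block, a stricter adjusted p (0.01), and fits that each lacked 1 library or 1 batch. Python 3.11.15 and matplotlib 3.10.9 drew the figures.

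The batch number is stated in the labels, but the labels name no model, so the reported fit has no block and the blocked fit is an alternative. With the block Rora was not called (edgeR adjusted p 0.0803). Across 10292 genes (mean log2 CPM over 3), deviations of same-numbered libraries correlated at -0.0925, 0.0744, -0.0213 and -0.0949, and those of other pairs at -0.117 to 0.141. The same-numbered values thus lay within the range of the other pairs. Replicates differed by more than counting noise (chi-square per gene 1.66 to 5.33), so none was treated as a duplicate.

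The receptor genes, the gene lists and the tests were chosen with earlier results of these data known. Named genes are the 4 receptors, up to 4 tested genes with the smallest p in each list (all genes of the clock lists), the 5 rows most like each tested receptor, and overlapping or nearest rows. Of the nearest rows of Nr1d2, Rora and Rorb only Thrb is named, and the rest are given by their range. Promoter windows and motifs come from RefSeq tables on GRCm38.p6, in which all 4 receptor genes matched, and isoform overlaps from GENCODE M21 on GRCm38. A few genes that the rule would name are not reported here, and list counts include them. No coordinate was converted between builds.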

Additional observations from a re-analysis of the deposited data

Results flagged for a closer look

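In 140 groups of 4 libraries (the vehicle and Mic-628 values of the genes named), the highest or lowest library was set against the others, and 5 groups had 1 library whose gap to its nearest neighbour was above Dixon's 95% critical value. Chance alone flags about 1 in 20 such groups. Rorb was 0.005 FPKM in vehicle library 4 and 0 in the other vehicle libraries, from 1 count. With the others tied at 0 any count is flagged, so the 1 in 20 rate does not apply to Rorb. Gsk3b reached 160.3 CPM in Mic-628 library 4, above its other Mic-628 libraries. The gap was small, as the Mic-628 libraries had 159.0 ± 0.823 CPM and the vehicle libraries 161.0 ± 3.99 CPM. Cyp51 reached 324.8 CPM in vehicle library 1, above the other vehicle libraries. Krt14, an epithelial keratin, reached 3.79 CPM in Mic-628 library 4. Pim2 was 3.30 CPM in Mic-628 library 3, below the other Mic-628 libraries.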

How the results depend on the processing

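Nr1d1 and Nr1d2 kept their direction and their call in all 25 alternatives, with log2 fold changes of 1.47 to 1.56 and -1.02 to -0.90. Rora kept its direction in all 25 and lost its call in 20. Its log2 fold change without a call was -0.33 with DESeq2, with DESeq2 and the replicate block, with the replicate block in edgeR, without the low-count filter and at a threshold of 0.01, and -0.32 with library size only, limma-voom and limma-trend on log2(FPKM + 0.1). It was -0.23 with limma-trend on log2(FPKM + 1), over filtered or all rows. Without batch 1, 2 or 3 it was -0.30, -0.34 and -0.26, also without a call, and without 1 library it ran from -0.37 to -0.28 (adjusted p 0.0339 to 0.153). Why these fits differ was not tested. Rorb gave a value in 2 alternatives, -1.58 without the low-count filter (adjusted p 0.667) and -0.0018 with limma-trend over all rows (adjusted p 0.965).

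The number of called rows, 749, was 586 with DESeq2, 624 with the replicate block, 251 with DESeq2 and the replicate block, 277 and 273 with limma-trend on log2(FPKM + 1) and log2(FPKM + 0.1), 170 over all rows, 331 without batch 2, 292 without batch 3 and 330 at a threshold of 0.01. Leaving out 1 library gave 426 to 802 rows. Fewer libraries enter the fits without a batch or library, and the cause was not tested otherwise. With edgeR, the replicate block changed no call of the genes named other than Rora and Fzd8. With DESeq2 and the block, Per2 (adjusted p 0.0506), Nlrp2 (0.0513), Capn5 (0.210) and Tcn2 (0.214) also lost the call, which they kept with DESeq2 alone.

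Of 60 other named genes, 10 lost their call in at least 1 alternative, 3 gained one and 4 changed sign in at least 1. None of these 4 was called in the reported fit. Bhlhe41 was -0.0022 and -0.0027 with limma-trend on log2(FPKM + 0.1) and log2(FPKM + 1), -0.0035 with upper-quartile scaling, -0.032 without batch 2 and -0.083 without batch 4, and -0.087 to 0.054 without 1 library. Ep300 was -0.033 without batch 1 and -0.0092 to 0.065 without 1 library. Fbxw7 was -0.0086 without batch 3 and -0.025 without batch 4, and -0.025 to 0.070 without 1 library. Krt14 was -0.079 without batch 4 and -0.10 to 0.13 without 1 library.

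Rorb, with 1 count in all, could not be tested at this depth. For Rora, at 92.5 to 152 counts per library, counting alone gives a coefficient of variation of 8.45% with vehicle and 9.47% with Mic-628, beside measured ones of 7.08% and 5.55%.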

Other observations

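Enzymes of sterol metabolism, which lies next to the proposed ROR ligands, were mostly not called. Of 11 listed genes 7 were tested, 0 rose and 1 fell, beside 2.13% and 2.25% of all tested rows, and the median log2 fold change was -0.0015. The number that fell stayed at 1 in 19 of 24 other fits. It was 0 by edgeR without vehicle library 3, without batch 2 and without batch 3. With DESeq2 and the replicate block, and with limma-trend on log2(FPKM + 1) over all rows, it was also 0. Cyp51, the lanosterol demethylase, stood at 0.10 without a call (adjusted p 0.0854). It passed the threshold with DESeq2 (0.0461), without batch 1 (0.0449) and without vehicle library 1 (0.0260). Cyp46a1 (0.47, adjusted p 0.211) and Lss (-0.07, adjusted p 0.255) were not called. The oxysterol enzymes Ch25h, Cyp27a1 and Cyp7b1 were at 0 in every library.

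The libraries of a group varied more than counting alone for Nr1d1, with coefficients of variation of 5.89% and 3.28% (vehicle, Mic-628) beside 3.14% and 1.85% from counts. For Nr1d2 they were 3.13% and 4.45% beside 2.54% and 3.56%.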
